A study of Mus musculus with 6 samples.

Results

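Accessible chromatin was examined at 10 genes that control the step from quiescence into the cell cycle, in mouse livers that overexpressed the kinase Dyrk1b and in control livers. The genes are those of the DREAM subunits Lin9, Lin52, Lin54, Rbl1 and Rbl2, the transcription factor E2f1, the cyclins Ccnd1 and Ccne1, and the cyclin-dependent kinase (CDK) inhibitors Cdkn1a and Cdkn1b. They were chosen by name, as known or proposed targets of DYRK kinases or their direct partners, and every peak that the deposited annotation assigned to them was taken. This gave 14 peaks of 22412, and each of the 10 genes had at least 1. ATAC-seq, which tags accessible DNA by means of a transposase, gave 3 liver libraries labelled Ad-Dyrk1b with the genotype Dyrk1b overexpression and 3 labelled Ad-EGFP with the genotype control. EGFP is a green fluorescent protein, so both groups received a transgene, and the prefix Ad-, which the labels do not spell out, is the usual short form of an adenoviral vector. The labels used here give no strain, age, sex, dose, time after delivery or cell type reached by the vector, and do not say that the libraries of a group are separate animals. The p-values therefore rest on the spread among these libraries alone, part of which may be technical.

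The DREAM complex holds cell cycle genes silent in resting cells. It joins a MuvB core, which includes LIN9, LIN52 and LIN54, to a pocket protein, p107 (Rbl1) or p130 (Rbl2), and to a repressive E2F with its DP partner. In mammalian cells DYRK1A phosphorylates LIN52 and so favours assembly of the complex, and DYRK1B phosphorylates cyclin D1, which promotes its breakdown, and p27 (Cdkn1b), which stabilises it. Adult hepatocytes are mostly quiescent and return to the cycle after injury. These known actions are on proteins, while the assay reads the openness of chromatin at the genes that encode them.

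Promoter sequences are shown where the window upstream of a start held letters of a site known from cell cycle promoters, and for the downstream start of Cdkn1a, whose peak was among those with the largest changes. Mouse sequences from RefSeq (build GRCm38.p6) were found for 8 of the 10 genes, in 10 windows that run from 250 bases before to 50 bases after a start. The lines give the 250 bases before the start, 5′ to 3′ along the gene. Capitals mark E2F letters (TTTCCCGC, TTTCGCGC, TTTGCCGC or TTTGGCGC), letters of the cell cycle homology region or CHR (TTTGAA or TTCGAA), which LIN54 binds, and the CCAAT box, each on either strand. At Cdkn1a they mark the GC box GGGCGG in place of these. The windows lie at chr12:84451258-84451507, plus strand for Lin52, chr5:100498574-100498823, minus strand for the downstream start of Lin54, chr2:157204535-157204784, minus strand for Rbl1, chr8:91069807-91070056, plus strand for Rbl2, chr17:29093519-29093768, plus strand for the downstream start of Cdkn1a and chr6:134920151-134920400, plus strand for Cdkn1b.
Lin52: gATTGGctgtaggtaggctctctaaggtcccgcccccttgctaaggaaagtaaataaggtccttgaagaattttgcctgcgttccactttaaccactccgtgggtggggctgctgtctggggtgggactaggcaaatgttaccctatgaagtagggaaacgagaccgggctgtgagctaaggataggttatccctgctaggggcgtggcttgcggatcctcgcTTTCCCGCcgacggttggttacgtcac
Lin54: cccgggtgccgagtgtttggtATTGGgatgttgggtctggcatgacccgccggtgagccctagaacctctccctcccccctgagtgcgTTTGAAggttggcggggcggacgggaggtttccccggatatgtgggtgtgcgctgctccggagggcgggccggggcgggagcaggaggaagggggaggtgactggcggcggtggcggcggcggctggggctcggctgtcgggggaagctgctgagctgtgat
Rbl1: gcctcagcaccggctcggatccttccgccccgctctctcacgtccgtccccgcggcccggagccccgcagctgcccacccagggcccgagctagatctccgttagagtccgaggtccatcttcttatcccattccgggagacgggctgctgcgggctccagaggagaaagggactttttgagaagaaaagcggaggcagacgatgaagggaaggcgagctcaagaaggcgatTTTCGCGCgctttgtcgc
Rbl2: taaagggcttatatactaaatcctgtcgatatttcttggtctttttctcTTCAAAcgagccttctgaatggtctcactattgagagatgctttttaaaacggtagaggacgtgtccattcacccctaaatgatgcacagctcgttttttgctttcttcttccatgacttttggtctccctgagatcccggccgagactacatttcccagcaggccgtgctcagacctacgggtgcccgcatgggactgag
Cdkn1a: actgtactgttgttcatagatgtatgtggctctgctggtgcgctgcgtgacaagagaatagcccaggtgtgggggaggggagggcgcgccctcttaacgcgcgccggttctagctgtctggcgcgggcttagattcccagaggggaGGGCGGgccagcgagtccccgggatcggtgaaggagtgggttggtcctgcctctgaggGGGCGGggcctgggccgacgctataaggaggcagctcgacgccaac
Cdkn1b: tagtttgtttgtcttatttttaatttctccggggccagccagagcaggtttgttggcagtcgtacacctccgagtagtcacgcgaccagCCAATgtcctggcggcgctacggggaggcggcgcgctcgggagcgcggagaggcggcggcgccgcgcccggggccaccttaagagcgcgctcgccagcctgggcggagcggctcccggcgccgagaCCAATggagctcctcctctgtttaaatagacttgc

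E2F letters stood at position -27 of Lin52 and -18 of Rbl1, counted to the first base of the match from the start site. They were in 2 of the 10 member windows, and in 2.26% of all 32851 windows of the table. The E2f1 window before its listed start reads as coding sequence. Letters present or missing in that window do not describe the E2f1 promoter. CHR letters were in 3 of the 10, at position -162 before the downstream start of Lin54, at -201 of Rbl2, and after the upstream start of Lin54, against 19.2% of all windows. The CCAAT box was in 3 of the 10 (37.4% of all windows) and the GC box in 9 of the 10 (35.7%), while TATAAA was in 0 of the 10 (13.6%) and TGACGT in 2 of the 10 (7.51%). None of the E2F, CHR or CCAAT matches in capitals overlapped another motif searched. On the other strand from Lin52, the start of Aldh6a1, an enzyme of valine breakdown, lay within 1000 bases, so reads at that promoter can belong to either gene. These matches describe the letters and were not tested as binding sites.

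The peaks lay mostly at the start sites. In deposited coordinates, whose build is not named in the table, 12 of the 14 peaks were within 3 kb of a start and are called promoter peaks here, and the other 2 lay deep in introns of Lin52. The peaks of Lin52 (chromosome 12, 84497842 to 84498415), Rbl1 (chromosome 2, 157045675 to 157046515), Ccne1 (chromosome 7, 37806505 to 37807543) and Cdkn1b (chromosome 6, 134897053 to 134897787), and the exon 1 peak of Rbl2 (chromosome 8, 91796454 to 91797177), spanned the deposited start itself. They reached 354, 83, 584, 311 and 231 bases upstream of it, in that order. The Lin9 peak (chromosome 1, 180468755 to 180469456) began 40 bases and the E2f1 peak (chromosome 2, 154410710 to 154411380) 432 bases downstream of the deposited start, in intron 1 and exon 1. The transcript that the annotation names for the E2f1 peak has a later start, 260 bases before the peak. A second Rbl2 peak (91797210 to 91797534) followed the first after 33 bases, in intron 1.

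Peaks of 2 genes were listed some way from the first start but matched a second one. The Cdkn1a peak (chromosome 17, 29312482 to 29313020, class 5′ UTR) lay 2529 to 3067 bases downstream of the upstream start and spanned the start of the transcript that the annotation names for it, from 261 bases before to 277 after. The sequence table also has a second Cdkn1a start 2790 bases downstream of the first, which is the distance between the deposited starts. The Lin54 peak (chromosome 5, 100646218 to 100646784) lay in intron 1, 1709 to 2275 bases downstream of its deposited start, and the table has a second Lin54 start 2066 bases downstream of the first. Ccnd1 had no peak on its start. Its peaks lay at positions -1933 to -1578 from the start (chromosome 7, 144495184 to 144495539) and in intron 2, 2052 to 2284 bases downstream (144491322 to 144491554).

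**Figure D1:**
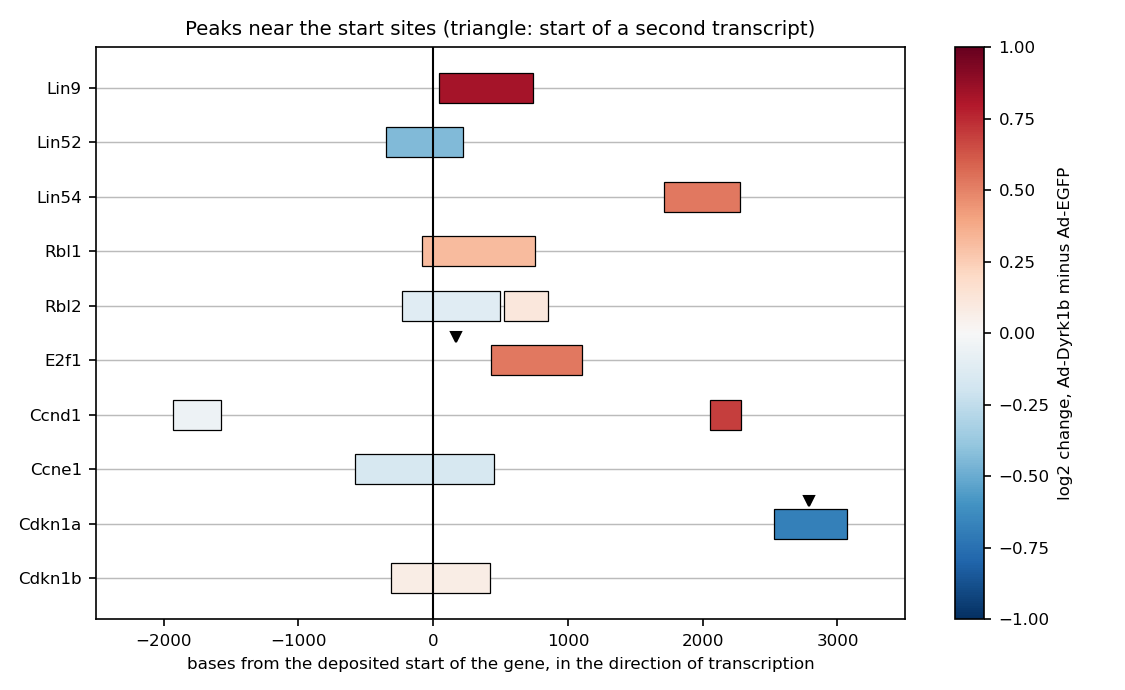
Position of the 12 promoter peaks along each gene. The horizontal axis gives bases from the deposited start in the direction of transcription, a box is a peak, its colour is the log2 change (Ad-Dyrk1b minus Ad-EGFP), and triangles mark the start of the transcript named in the annotation where it differs from the deposited start. The deepest red is Lin9 (0.83), directly after its start, and the deepest blue is Cdkn1a (-0.68), on its downstream start.

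Libraries held 768418 to 1267934 reads in peaks with Ad-Dyrk1b and 762633 to 855787 with Ad-EGFP, which is 1.67% to 2.62% and 1.89% to 2.22% of the totals behind the deposited RPKM values. Member peaks held 11 to 122 reads per library. At Dyrk1b the peak on exon 9 of 11 held 27, 30 and 53 reads with Ad-Dyrk1b and 10, 1 and 3 with Ad-EGFP. No deposited count was under 1. Ad-Dyrk1b livers had 35.8, 33.1 and 40.7 CPM there (counts in peaks, TMM-normalised to a common library size) and Ad-EGFP livers 11.7, 1.22 and 4.03 CPM. The log2 change was 2.67 ± 0.50 SE, and the peak was called (adjusted p = 0.00981 in the quasi-likelihood test of edgeR). That call was lost without Ad-EGFP replicate 2 or 3 or Ad-Dyrk1b replicate 3, with DESeq2, with limma-trend and with loess normalization. The other Dyrk1b peak, on exon 11 of 11, had 34.9 ± 7.74 CPM with Ad-Dyrk1b and 11.2 ± 0.806 CPM with Ad-EGFP and did not pass (1.63 ± 0.42, adjusted p = 0.107 by edgeR). Reads from the transgene and from the gene itself cannot be told apart there. Of the peaks at cell type markers 0 were called. At hepatocyte markers 6 of 7 peaks had negative log2 changes (median -0.25), with 5 of 8 genes having a peak. At markers of other liver cells 10 of 12 were positive (median 0.43), with 8 of 26 genes having a peak and no peak at any of 4 cholangiocyte markers. Summed CPM at markers of other liver cells was 496 to 522 with Ad-Dyrk1b and 423 to 467 with Ad-EGFP. By type, the mean sums with Ad-Dyrk1b and Ad-EGFP were 132 and 95.8 at lymphocyte, 146 and 114 at liver endothelial, 54.5 and 42.9 at stellate and, in the other direction, 174 and 191 at macrophage markers. The sums at hepatocyte markers overlapped, at 313 to 336 with Ad-Dyrk1b and 279 to 435 with Ad-EGFP. With reads scaled to the RPKM totals 3 of the 7 hepatocyte peaks were positive. In whole liver, a shift in cell numbers and a change within cells cannot be told apart, and the part of these marker levels in the results below was not tested.

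With Dyrk1b overexpression 0 of the 14 member peaks passed an adjusted p under 0.05 in either direction, where 7 of 22051 peaks tested did (0.0317%). All 14 had passed the filter on low counts. The most positive log2 change was at Lin9 and the most negative at Cdkn1a, and these were the 2 peaks with an unadjusted p under 0.05. In the higher direction 1 of the 14 had such a p, or 7.14%, beside 6.44% of all peaks, and in the lower direction 1, or 7.14%, beside 7.72%. The groups did not overlap at 4 peaks. Ad-Dyrk1b stood above Ad-EGFP at 3 of them, Lin9, Lin54 and the intron 2 peak of Ccnd1 (21.4% of members, 9.53% of all peaks), and below it at 1, Cdkn1a (7.14% and 9.97%). Positive log2 changes were found at 9 of the 14, or 64.3%, beside 50.5% of all peaks, and the median was 0.16 beside 0.0046. Among promoter peaks alone 7 of the 12 members were positive, or 58.3%, beside 43.1% of all promoter peaks. The medians were 0.094 and -0.067. Scaled to the RPKM totals, 11 of the 14 were positive, beside 14314 of 22051 peaks. DESeq2 and limma-trend also called 0. At an unadjusted p under 0.05 in either direction DESeq2 had 2 of the 14, beside 12.3% of all peaks, and limma-trend 5, beside 14% of all peaks, and DESeq2 gave no adjusted p for 9 of the 14.

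**Figure D2:**
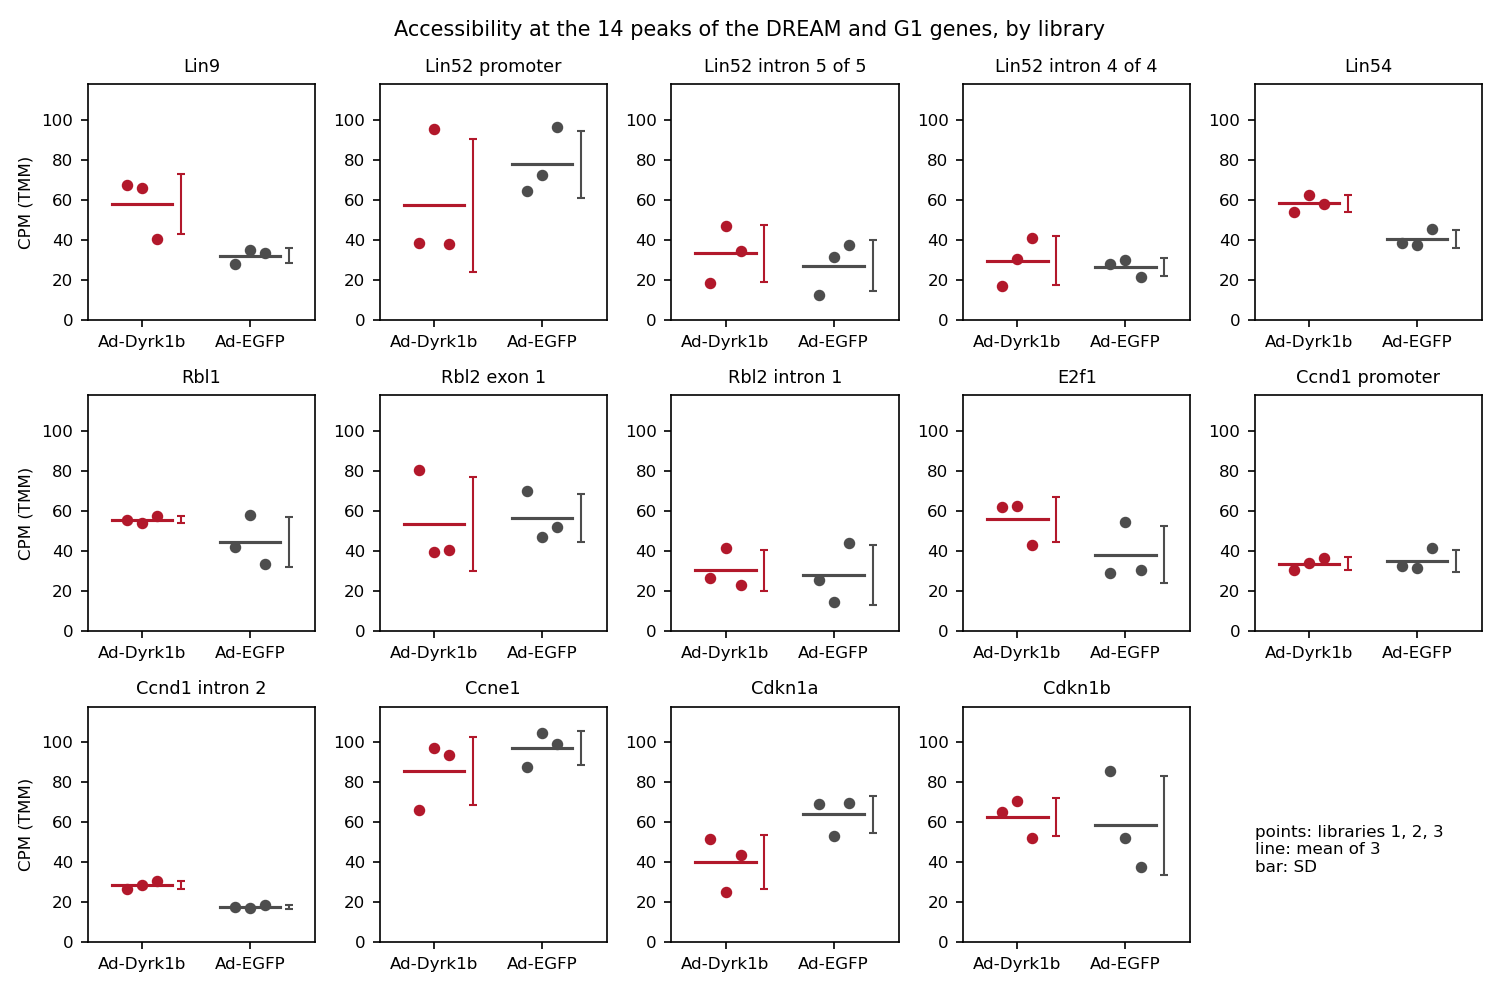
Accessibility of each of the 14 peaks in CPM (TMM-normalised, linear axis from 0), with 1 point per library, the mean as a line and the SD as a bar, Ad-Dyrk1b in red and Ad-EGFP in grey (n = 3 each). The groups stand apart at Lin9, Lin54, Ccnd1 intron 2 and Cdkn1a, and overlap in the other panels.

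Among the MuvB core genes, the Lin9 and Lin54 peaks were higher in every Ad-Dyrk1b library and the Lin52 promoter was not. LIN9 is a scaffold subunit of the core. Its peak had 67.7, 66.2 and 40.7 CPM in Ad-Dyrk1b livers, against 28.1, 35.2 and 33.6 CPM in Ad-EGFP livers, from 51, 60 and 53 reads against 24, 29 and 25. Ad-Dyrk1b libraries 1 and 2 were about alike and the deepest library, Ad-Dyrk1b 3, was nearest the Ad-EGFP range. The means were 58.2 ± 15.2 and 32.3 ± 3.71 CPM (SD, n = 3 each), a log2 change of 0.83 ± 0.29 (SE, 95% interval 0.25 to 1.4). Lin9 had the lowest p of the 14 peaks (0.00557), rank 589 of all peaks tested, and an adjusted p of 0.209 by edgeR. With 1 library left out the log2 change lay between 0.71 and 1.06, with an adjusted p of at least 0.216. Over the alternatives that adjusted p for Lin9 it ran from 0.200 to 0.466. DESeq2 gave no adjusted p for this peak (unadjusted p = 0.00788). In the authors' deposited table it also has the lowest FDR of the 14, 0.34, with a log2 ratio of 0.98.

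LIN54 is the subunit of the core that binds DNA. Its peak had 54.4, 62.9 and 58.4 CPM in Ad-Dyrk1b livers and 38.7, 37.7 and 45.7 CPM in Ad-EGFP livers. All 3 Ad-Dyrk1b values were above all 3 Ad-EGFP values, with a spread within each group of 7.21% and 10.8% (coefficient of variation). The reads alone would give a counting error of 13.1% and 17.5%, so the values within groups lay closer together than counting error. The log2 change was 0.53 ± 0.27 (95% interval -0.00093 to 1.06), with an unadjusted p of 0.0504 and an adjusted p of 0.354 by edgeR.

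LIN52 bridges the core and the pocket protein and is the subunit that DYRK1A phosphorylates. Its promoter peak had 38.5, 95.9 and 38.4 CPM in Ad-Dyrk1b livers, against 64.5, 72.9 and 96.8 CPM in Ad-EGFP livers. Ad-Dyrk1b 2 stood among the Ad-EGFP values, while the other Ad-Dyrk1b libraries lay below all of them. The log2 change was -0.44 ± 0.26 (adjusted p = 0.433 by edgeR, 0.738 by DESeq2, whose SE was 0.48). Without Ad-Dyrk1b replicate 2 it was -1.01 (adjusted p = 0.163, and 0.163 to 0.873 over all alternatives), and without Ad-Dyrk1b replicate 3 it was -0.18. The deep intronic peaks of Lin52 had log2 changes of 0.32 ± 0.36 (chromosome 12, 84558810 to 84559305, intron 5 of 5) and 0.20 ± 0.36 (84578713 to 84579103, intron 4 of 4 of another transcript). The first stood at -0.025 without Ad-EGFP replicate 1, and the second at -0.13 without Ad-Dyrk1b replicate 3 and -0.0058 after loess normalization.

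The pocket protein genes showed smaller differences. p107 (Rbl1) is itself an E2F target. Its peak had 55.7, 54.0 and 57.6 CPM in Ad-Dyrk1b livers, against 42.2, 58.3 and 33.6 CPM in Ad-EGFP livers. The Ad-Dyrk1b values lay close together inside the range of the Ad-EGFP values, and the log2 change was 0.32 ± 0.27 (95% interval -0.22 to 0.85, adjusted p = 0.590 by edgeR). p130 (Rbl2) is the main pocket protein of DREAM in resting cells. Its exon 1 peak had 81.0, 39.7 and 40.7 CPM with Ad-Dyrk1b and 70.4, 47.4 and 52.4 CPM with Ad-EGFP, where the first library of each group was the highest. Its log2 change was -0.12 ± 0.27, and that of the intron 1 peak beside it was 0.11 ± 0.37 (30.5 ± 10.03 CPM with Ad-Dyrk1b and 28.3 ± 15.0 CPM with Ad-EGFP). With 1 library left out these lay between -0.49 and 0.073 and between -0.20 and 0.58. Their 95% intervals were -0.66 to 0.42 and -0.62 to 0.84.

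E2F1 activates genes of S phase. At the E2f1 peak Ad-Dyrk1b livers had 62.4, 62.9 and 43.0 CPM, and Ad-EGFP livers 29.3, 54.7 and 30.9 CPM. Ad-EGFP 2 lay above Ad-Dyrk1b 3, so the groups overlapped. The log2 change was 0.53 ± 0.28 (95% interval -0.039 to 1.10, adjusted p = 0.388 by edgeR). It was 0.88 without Ad-EGFP replicate 2 and 0.36 without Ad-EGFP replicate 1.

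Cyclin D1 drives CDK4 and CDK6 in G1, and cyclin E1 drives CDK2 at the entry into S phase. The intron 2 peak of Ccnd1 had 26.5, 28.7 and 30.7 CPM in Ad-Dyrk1b livers, against 17.6, 17.0 and 18.8 CPM in Ad-EGFP livers. The groups did not overlap, and the values within each group lay closer (7.28% and 5.21%) than the counting error of 20, 26 and 40 reads and of 15, 14 and 14 reads would give (18.7% and 26.4%). Its log2 change was 0.69 ± 0.40 (adjusted p = 0.415 by edgeR), and 0.44 after loess normalization. The upstream peak of Ccnd1 had 30.5, 34.2 and 36.9 CPM with Ad-Dyrk1b and 32.8, 31.6 and 41.7 CPM with Ad-EGFP, a log2 change of -0.049 ± 0.31. Its sign turned without Ad-EGFP replicate 3 (0.083) or Ad-Dyrk1b replicate 1 (0.021). The Ccne1 promoter peak was at percentile 95.1 of all peaks by read number, which does not allow for width. It was the widest of the 14, with 1038 bases beside a median of 456 for all peaks. Per length its mean RPKM was 1.90 with Ad-Dyrk1b and 1.86 with Ad-EGFP, inside the quartiles of all peaks (1.35 and 1.96). The peak had 66.4, 97.0 and 93.7 CPM with Ad-Dyrk1b and 87.9, 105 and 99.5 CPM with Ad-EGFP. Its log2 change was -0.17 ± 0.22, with the narrowest 95% interval of the 14 (-0.61 to 0.27).

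Of the CDK inhibitor genes, Cdkn1a had a negative log2 change and Cdkn1b one near 0, with 95% intervals that overlapped. p21 (Cdkn1a) stops the cycle downstream of p53 and other signals. Its peak had 51.8, 25.4 and 43.8 CPM in Ad-Dyrk1b livers, against 69.2, 53.5 and 69.9 CPM in Ad-EGFP livers. All 3 Ad-Dyrk1b values were below all 3 Ad-EGFP values, with Ad-Dyrk1b 1 just under the lowest of them. The means were 40.3 ± 13.5 and 64.2 ± 9.30 CPM, a log2 change of -0.68 ± 0.27 (95% interval -1.21 to -0.14, unadjusted p = 0.0149, adjusted p = 0.264 by edgeR). Without Ad-Dyrk1b replicate 2 it was -0.44 with an adjusted p of 0.551, and over all alternatives the adjusted p ran from 0.225 to 0.691. p27 (Cdkn1b) restrains CDK2 in resting cells. Its promoter had 65.0, 70.6 and 52.2 CPM with Ad-Dyrk1b and 85.6, 52.2 and 37.6 CPM with Ad-EGFP. The Ad-EGFP libraries spread over the whole range of the Ad-Dyrk1b ones, and the log2 change was 0.075 ± 0.26. Its sign turned without Ad-EGFP replicate 2 or 3 or Ad-Dyrk1b replicate 2.

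**Figure D3:**
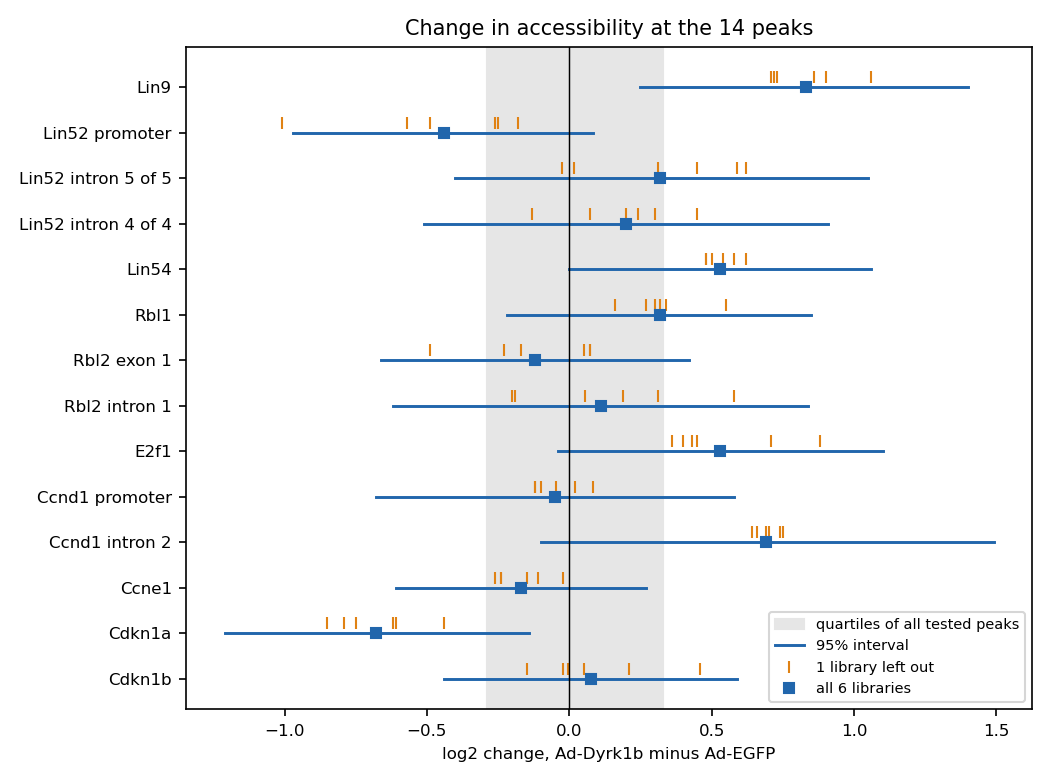
Log2 change (Ad-Dyrk1b minus Ad-EGFP, horizontal axis) of the 14 peaks, with squares for all 6 libraries, lines for the 95% interval and orange ticks for each fit with 1 library left out. The grey band spans the quartiles of all tested peaks, -0.29 to 0.33. The intervals of Lin9 and Cdkn1a lie on 1 side of 0, and none of the 14 adjusted p-values was under 0.05.

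Scaling changes the level of all peaks at once. When reads were scaled to the totals behind the RPKM values, the median of all peaks moved to 0.17. Relative to that shift Lin9 stood at 0.80 and Cdkn1a at -0.71, Lin54 at 0.53, E2f1 at 0.52 and the intron 2 peak of Ccnd1 at 0.70. Without subtracting the shift, the upstream peak of Ccnd1 (0.13) and Ccne1 (0.031) changed sign.

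In each of the 3 genes with several peaks, the peak at or before the start had a negative log2 change and the peaks further inside the gene positive ones, although the signs at Rbl2, the upstream peak of Ccnd1 and the Lin52 introns turned when single libraries were left out. In the whole table promoter peaks had a median of -0.067 and intron peaks 0.053, and after loess normalization 0.0032 and 0.02. These classes overlap, since intron peaks within 3 kb of a start, such as those of Ccnd1 and Rbl2, count in both. The ratio of reads between 2 peaks of a gene in the same library does not depend on how libraries are scaled, and 4 such ratios were computed, chosen after the values were seen. The ratio of the intron 2 peak to the upstream peak of Ccnd1 was 0.87, 0.839 and 0.833 in Ad-Dyrk1b livers, against 0.536, 0.538 and 0.452 in Ad-EGFP livers, with no overlap. For Lin52 the ratio of the intron 5 peak to the promoter was 0.483, 0.494 and 0.9 with Ad-Dyrk1b and 0.2, 0.433 and 0.389 with Ad-EGFP, again with no overlap. Each of these had p = 0.1 in a two-sided exact permutation test, the smallest that 3 against 3 libraries allow, and 0.2 after adjustment over the 4 ratios. The ratios of the other Lin52 intron peak (p = 0.4) and of Rbl2 (p = 0.6, both by the exact permutation test) overlapped between groups.

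**Figure D4:**
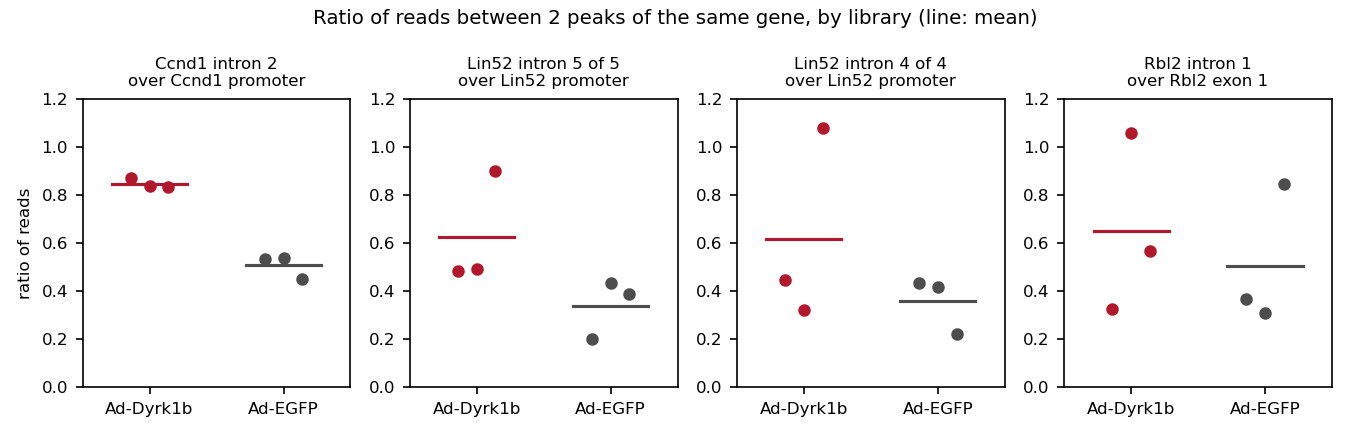
Ratio of reads between 2 peaks of the same gene in each library (vertical axis, from 0), with the mean as a line, Ad-Dyrk1b in red and Ad-EGFP in grey (n = 3 each). The Ccnd1 ratios lie between 0.833 and 0.87 with Ad-Dyrk1b and between 0.452 and 0.538 with Ad-EGFP, while the last 2 panels overlap.

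Per length, mean RPKM, as deposited, ran from 1.49 at Rbl1 to 2.80 at the intron 2 peak of Ccnd1 in Ad-Dyrk1b livers, and from 0.913 at Lin9 to 2.70 at the Lin52 promoter in Ad-EGFP livers. The median of all peaks was 1.64, with quartiles of 1.35 and 1.96. In Ad-EGFP livers the ends of the order lay apart, with 0.888 to 0.930 RPKM at Lin9 and 2.36 to 3.25 RPKM at the Lin52 promoter, both outside these quartiles. Neighbours in the order had overlapping ranges over libraries for all 13 pairs in both groups, so the order from one peak to the next was not resolved. Lin9 was the least open of the 14 per length in Ad-EGFP livers and ranked 10 in Ad-Dyrk1b livers (1.57 to 2.25 RPKM), and Cdkn1a ranked 11 with Ad-Dyrk1b and 2 with Ad-EGFP. Summed over the 14 peaks, the level was 662, 758 and 635 CPM with Ad-Dyrk1b and 633, 641 and 664 CPM with Ad-EGFP, and these sums overlapped.

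Peaks around the genes did not follow one pattern. Within 100 kb of the deposited starts, 1 to 9 further peaks were tested per locus and 0 were called by edgeR. Of these, 4 in all had an unadjusted p under 0.05 in either direction. They were 1 each around Lin54 (of 4 peaks), Rbl1 (of 3), Ccnd1 (of 5) and Cdkn1a (of 9). Over all peaks 6.44% had such a p in the higher and 7.72% in the lower direction. Around Lin9 the 2 other peaks, at Acbd3 and Parp1, had a median log2 change of -0.021, and around Cdkn1a 4 of 9 were positive (median -0.082). Around Lin54 the median was -0.28 and around Rbl1 0.46.

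Other genes of the pathway were read from 6 lists, of which 80 peaks at 53 of 86 genes were in the table and 79 were tested. By edgeR 1 passed, the exon 9 peak of Dyrk1b, and at an unadjusted p under 0.05 3 were higher and 9 lower, beside 6.44% and 7.72% of all peaks. Of the 3 higher ones 2 were the peaks of Dyrk1b itself. Their median log2 change was -0.057, with 36 of 79 positive. Other partners of the DREAM and MuvB complexes had 5 of 7 positive (median 0.25). The lowest p were in intron 3 of Tfdp1, a DP partner of E2F (0.97 ± 0.57), and at the promoter of the retinoblastoma gene Rb1 (0.45 ± 0.30). Of the G1 cyclins, kinases and inhibitors 6 of 12 were positive (median 0.037). An intron peak of Cdk6, a partner of cyclin D1, had 61.2 ± 11.4 CPM with Ad-Dyrk1b and 34.7 ± 0.919 CPM with Ad-EGFP (0.81 ± 0.28, adjusted p = 0.196), and an intron peak of Ccnd3, cyclin D3, 16.0 ± 4.82 and 36.4 ± 4.41 CPM (-1.16 ± 0.38, adjusted p = 0.186). Neither pair of groups overlapped, and neither peak passed.

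Genes that E2F and DREAM control were read against a share of positive log2 changes of 50.5% over all peaks and 43.1% over promoter peaks. Of 13 peaks at S phase genes 4 were positive, or 30.8% (median -0.17), with the lowest p at Mcm2, a subunit of the replicative helicase (-0.58 ± 0.30), and Prim1, a primase subunit (-0.59 ± 0.36). Of 16 tested peaks at genes of G2 and mitosis 7 were positive, or 43.8%, close to the share of promoter peaks (median -0.10), while 10 were positive with reads scaled to the RPKM totals (median 0.085, beside 0.17 for all peaks). The spindle checkpoint gene Bub1b had -0.63 ± 0.33 and Cdc20, the activator that the checkpoint restrains, 0.60 ± 0.33, each with groups that did not overlap. Further E2F genes and G1 regulators had 11 of 20 negative (median -0.16). At an unadjusted p under 0.05 by edgeR 5 of the 20 were lower and 0 higher, beside 7.72% and 6.44% of all peaks. These 20 peaks lay at 11 genes. Those of Fbxo31 were all negative (-0.89 to -0.42) and those of Fbxw7 all positive (0.17 to 0.45). Here the promoter of Fbxo31, part of a ubiquitin ligase that acts on cyclin D1, had 57.1 ± 2.30 CPM with Ad-Dyrk1b and 106 ± 7.70 CPM with Ad-EGFP (-0.89 ± 0.22, adjusted p = 0.105), and an intron 1 peak of the repressor gene E2f6 had -1.22 ± 0.45. Among the DYRK kinases themselves, 5 of 11 peaks were positive (median -0.073), and Dyrk2 had -0.51 ± 0.23. None of the peaks named in these lists passed over all peaks, apart from the exon 9 peak of Dyrk1b. Scaled to the RPKM totals, the median of all 79 was 0.092.

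**Figure D5:**
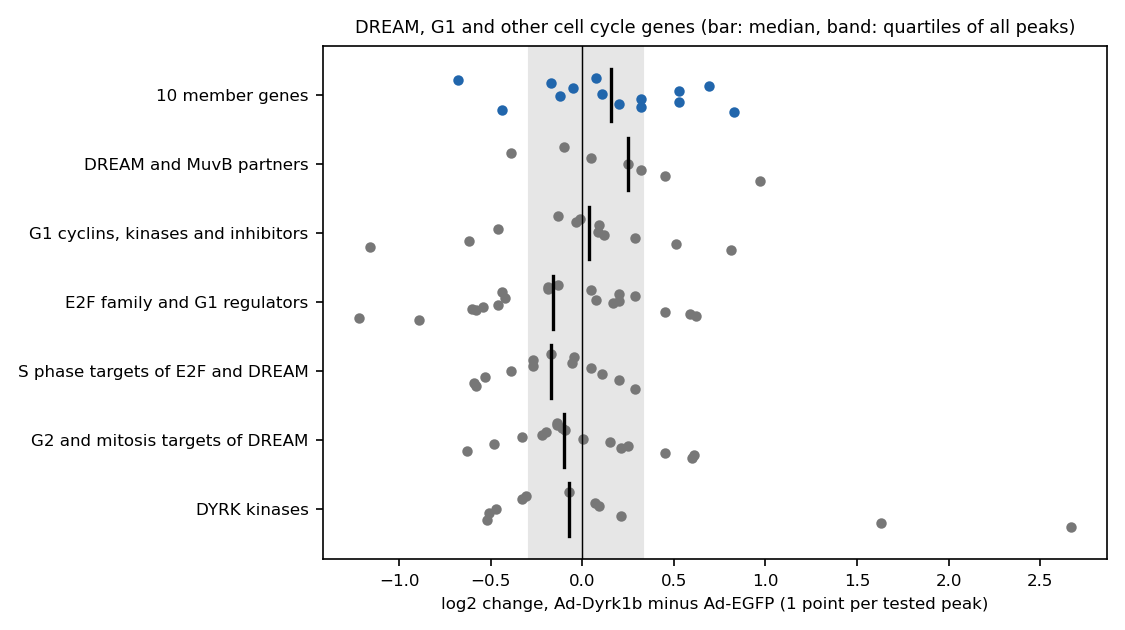
Log2 change (Ad-Dyrk1b minus Ad-EGFP, horizontal axis) of every tested peak, 1 point each, in blue for the 10 genes described and in grey for the 6 other lists, with the median as a bar and the quartiles of all tested peaks as a grey band. The medians run from -0.17 to 0.25, inside the band, and the point at 2.67 is the exon 9 peak of Dyrk1b.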

How the data were processed

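ATAC-seq of 3 Ad-Dyrk1b and 3 Ad-EGFP liver libraries was deposited as 1 table of 22412 peaks. Per the file headers, the deposited counts are reads per peak and library, and the authors' RPKM values, group means, log2 ratio of mean RPKM, p-value and FDR stand beside them. The deposited table also gives other annotation, such as the distance to the start. No deposited count is under 1, and peak names run to 30387. Whether a floor or filter was applied is not known. The submitters' processing notes name Bowtie2, DiffBind, ChIPseeker and the build mm10. The peak caller, treatment of duplicates, shift for the transposase and the authors' test are not given in the sources used. Deposited gene positions differ from those of GRCm38, so the build of the coordinates is not settled, nor whether starts count from 0 or 1.

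Counts of all peaks were tested with edgeR 4.0.16 (R 4.3.3), TMM, filterByExpr (22051 kept, 361 removed) and the quasi-likelihood test without covariates, with Benjamini-Hochberg adjustment over all peaks and calls at 0.05. SEs come from the F statistic, and edgeR shares the spread across peaks (common biological coefficient of variation 19.9%). CPM refer to reads in tested peaks. Alternatives used limma 3.58.1 (log2 CPM, prior count 2) and DESeq2 1.42.0. The fit was checked on simulated counts. The members, lists and ratios were chosen with earlier results of these data known. All 14 member peaks, the peaks of Dyrk1b and, of each list, the 2 genes with the lowest p are named. Replicate numbers of the labels did not pair libraries. No per-library depth beyond reads in peaks was used for precision, and intervals cover the fit only.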

Additional observations from a re-analysis of the deposited data

How the results depend on the processing

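Of the 14 member peaks 0 were called in the main setting and in all 15 alternatives, and the lowest adjusted p in any of them was 0.163. Of 210 member values under alternatives 195 kept their direction and 15 reversed, and 7 peaks never reversed. Reversals outside leave-one-out were the Lin52 intron 4 of 4 peak after loess normalization with limma-trend (-0.0058) and, scaled to the RPKM totals, the Ccnd1 promoter (0.13) and Ccne1 (0.031). With 1 library left out, log2 changes ran from -0.025 to 0.62 for Lin52 intron 5 of 5, -0.13 to 0.45 for Lin52 intron 4 of 4, -0.49 to 0.073 for Rbl2 exon 1, -0.20 to 0.58 for Rbl2 intron 1, -0.12 to 0.083 for the Ccnd1 promoter and -0.15 to 0.46 for Cdkn1b. Among all peaks 2 were called higher and 5 lower. Higher calls were 0 with loess, DESeq2 and limma-trend, 1 scaled to the RPKM totals, and 0 to 6 with 1 library left out. Lower calls were 2 with library size only, 1 with loess, 19 with DESeq2, 2 with limma-trend, 0 scaled to the RPKM totals, and 0 to 9 with 1 library left out. The count of pathway list calls, 1 at Dyrk1b in the main setting, became 0 with loess and limma-trend, and 0 to 1 with 1 library left out. With DESeq2 the count was also 1, but at another peak, since DESeq2 called 0 peaks higher and so lost the Dyrk1b call. The causes were not tested. DESeq2 gave no adjusted p for 16245 peaks, 9 of the 14 member peaks among them, so those 9 could not have been called with it. Same-numbered libraries had correlations of -0.01, -0.014 and 0.007 of their deviations from the group means, so the numbers were not taken as pairs, and the replicate block gave 2 higher and 5 lower calls and 0 among the members. Member peaks held 11 to 122 reads per library, and changes too small for the fit at this depth and with 3 libraries a group would go uncalled.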
